A study of Mus musculus with 8 samples.

Results

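The 9 genes described here encode the subunits of the AMPA and kainate types of ionotropic glutamate receptor. They were taken by gene name, as the rows *Gria1* to *Gria4* (4 AMPA receptor subunits) and *Grik1* to *Grik5* (5 kainate receptor subunits) among the 24015 entries of the count table. The choice was made with earlier results of these data known. All 9 were found, and 9 of 9 passed the filter on low counts together with 15588 genes in all. Messenger RNA was sequenced from the brain of 8 C57BL/6N mice at postnatal day 7 (P7) in a study of a deletion in *Scn1a*, the gene for the sodium channel NaV1.1. WT mice (n = 2, both male) carried no deleted allele. 1b+/- mice (n = 4, replicates 1 and 2 male and replicates 3 and 4 female) carried 1 allele without the non-coding 1b interval of *Scn1a*, and 1b-/- mice (n = 2, both female) carried 2. The deletion was made with Cas9, is inherited through the germline and is therefore present in every cell of the carriers, and the animals come from a single deletion line. WT and 1b-/- differ in sex as well as in genotype, so an effect of sex and an effect of genotype cannot be told apart in that comparison.

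AMPA receptors carry most of the fast excitatory current at central synapses. The channel is assembled from subunits of the *Gria* genes, and the subunit encoded by *Gria2* sets how much calcium the channel passes. Kainate receptors are built from the related *Grik* subunits, act on both sides of the synapse and tune transmitter release and excitability. *Grik1*, *Grik2* and *Grik3* encode subunits that can form channels by themselves, whereas those of *Grik4* and *Grik5* bind kainate with high affinity and need a partner from the first set.

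The members share a stretch of the pore loop in which a glutamine codon is the Q/R site. In *Gria2*, *Grik1* and *Grik2* transcripts the middle adenosine of this codon is known to be edited to inosine by the enzyme of *Adarb1*, so that the protein carries arginine there. Because this site distinguishes the subunits functionally and its surroundings show how alike they are, 51 bases of each transcript around it are given here, read from the GENCODE vM1 transcripts of mm9 and written 5′ to 3′ along the gene, with the Q/R codon in capitals.
Gria1: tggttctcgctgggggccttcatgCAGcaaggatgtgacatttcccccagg
Gria2: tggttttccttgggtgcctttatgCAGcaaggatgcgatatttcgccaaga
Gria3: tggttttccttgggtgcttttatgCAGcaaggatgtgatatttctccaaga
Gria4: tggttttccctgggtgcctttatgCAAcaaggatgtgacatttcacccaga
Grik1: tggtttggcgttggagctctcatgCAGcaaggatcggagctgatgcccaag
Grik2: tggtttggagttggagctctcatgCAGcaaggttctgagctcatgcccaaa
Grik3: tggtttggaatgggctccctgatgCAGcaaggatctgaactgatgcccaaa
Grik4: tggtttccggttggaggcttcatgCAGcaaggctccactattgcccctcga
Grik5: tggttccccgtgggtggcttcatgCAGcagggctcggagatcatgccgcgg
The unedited codon was CAG in 8 genes and CAA in *Gria4*. Within the 51 bases, pairs of AMPA subunits shared 41 (*Gria1* and *Gria2*) to 48 (*Gria2* and *Gria3*) identical bases. Pairs of kainate subunits shared 28 (*Grik3* and *Grik4*) to 46 (*Grik1* and *Grik2*), and the 20 pairs across the families shared 32 to 36. *Grik4* and *Grik5* were thus no more alike (36 bases) than the closest pair across families.

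All 9 codons lie in coding exons (mm9). The AMPA codons are in exon 11 of 16 of *Gria1* (chr11:57056596-57056598, plus strand), exon 11 of 17 of *Gria2* (chr3:80510833-80510835, minus), exon 12 of 17 of *Gria3* (chrX:38963442-38963444, plus) and exon 12 of 17 of *Gria4* (chr9:4464137-4464139, minus). The kainate codons are in exon 11 of 16 of *Grik1* (chr16:87940787-87940789, minus), exon 13 of 17 of *Grik2* (chr10:48964135-48964137, minus), exon 12 of 16 of *Grik3* (chr4:125368451-125368453, plus), exon 16 of 21 of *Grik4* (chr9:42355706-42355708, minus) and exon 15 of 20 of *Grik5* (chr7:25807516-25807518, minus). Gene counts hold neither edited nor unedited reads, and they sum over all transcripts of a gene, so editing and the alternative flip and flop exons were not analysed here.

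The likeness of the genes bears on the counts, since a read of 50 bases that matches 2 genes cannot be assigned to either. In annotated coding transcripts, *Gria1*, *Grik1*, *Grik2* and *Grik5* held no stretch of 50 bases found in another gene. *Gria2* shared 13 of its 7000 distinct stretches of that length (0.186%), with *Gria3* and *Gria4*, and the largest share was that of *Grik3* (37 stretches, 0.414%, with genes outside the family). The longest run common to 2 members was 56 bases of coding sequence in exon 14 of *Gria2* (chr3:80495255-80495310, minus strand) and exon 15 of *Gria3* (chrX:39008033-39008088, plus strand), shown because it is where the counts of these 2 genes could mix.
Gria2 and Gria3: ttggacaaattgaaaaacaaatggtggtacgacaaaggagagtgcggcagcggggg
Of the stretches of *Grik3* 99.59% were its own, and the share was higher for every other member.

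The libraries held 2947770 to 20878772 counts, of which the 9 genes took 3918 to 33848 (0.133% to 0.165%). *Scn1a* was 45.1 and 40.5 CPM (counts scaled by TMM to a common library size) in WT, 26.7, 22.2, 25.4 and 15.7 CPM in 1b+/- and 3.18 and 2.0 CPM in 1b-/-, so its level followed the labels. The labels name hippocampus and the methods of the study name forebrain. Neocortex markers (5 genes, among them *Tbr1*) summed to 668 to 1245 CPM and hippocampus markers (5 genes, among them *Prox1*) to 79.0 to 121 CPM, with striatum markers at 117 to 207 CPM, so tissue beyond the hippocampus was represented. Libraries stood apart in other markers. Midbrain and hindbrain markers summed to 28.5 CPM in 1b+/- replicate 1 and to 1.34 to 7.27 CPM in the others, and choroid plexus markers summed to 15.5 CPM in 1b+/- replicate 2 and to as much as 988 CPM in WT replicate 2. In bulk tissue, fewer cells of a type and less RNA per cell cannot be told apart.

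The levels of the subunits were first set against each other, after division by the length of the exons (CPM per kb). *Gria2* led with 93.5 ± 13.9 CPM per kb (SD, n = 8), followed by *Gria1* with 51.8 ± 6.77. These genes ranked first and second in 8 of 8 libraries, and their ranges did not overlap each other or any other member. *Gria4* (18.9 ± 2.14), *Grik3* (18.03 ± 1.9), *Grik2* (13.4 ± 1.89), *Grik1* (12.2 ± 3.15), *Gria3* (10.4 ± 2.02) and *Grik5* (10.1 ± 1.43) followed, and each range overlapped that of its neighbour in this order. *Gria4* exceeded *Grik3* in 4 of 8 libraries, and *Gria3* exceeded *Grik5* in 4 of 8. *Grik4* was lowest by far, with 1.38 ± 0.386 CPM per kb and 21 to 181 counts in a library.

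The first, second and last places held with each gene's longest transcript, with its coding length and with no division by length. The order between them did not. *Grik2* came next after *Gria1* with the longest transcript (23.1 ± 3.25 CPM per kb), whereas *Grik3* came next with the coding length (58.6 ± 6.18 CPM per kb of coding sequence), and the levels between *Gria1* and *Grik4* are therefore not ranked here. Among all genes tested, ranked by mean CPM, *Gria2* stood above 99.1%, *Gria1* above 96.3%, *Grik1* above 66.3% and *Grik4* above 35.0%.

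**Figure D1:**
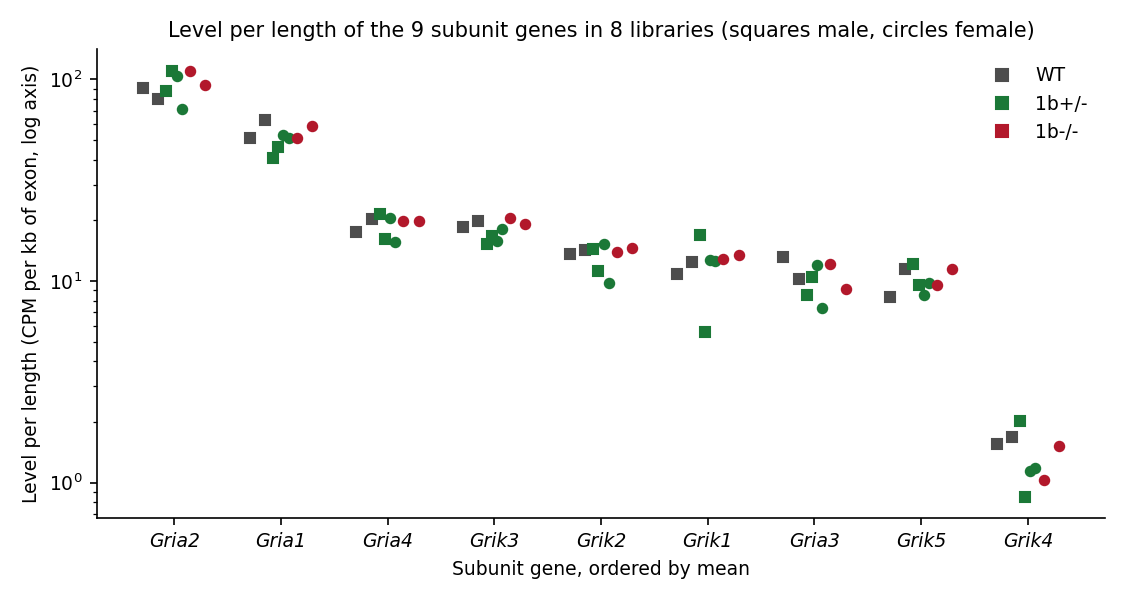
Level of each subunit gene in the 8 libraries, in CPM per kb of exon on a log axis, with genes ordered by their mean over all libraries and genotypes in colour (squares male, circles female). *Gria2* and *Gria1* lie above all other members and *Grik4* lies below them, while the 6 genes between overlap.

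The composition of each receptor pool was described as the share of a subunit in the summed CPM per kb of its family, without a test. *Gria2* made up 53.4% ± 4.41 of the AMPA sum (SD, n = 8), *Gria1* 29.8% ± 4.23, *Gria4* 10.9% ± 1.36 and *Gria3* 5.93% ± 0.865. In the kainate sum, *Grik3* had 33.0% ± 4.09, *Grik2* 24.4% ± 2.67, *Grik1* 21.8% ± 4.33, *Grik5* 18.4% ± 2.11 and *Grik4* 2.47% ± 0.529. The AMPA sum exceeded the kainate sum 2.60-fold (1b+/- replicate 1) to 4.17-fold (1b+/- replicate 2), and WT (2.9 and 3.27) and 1b-/- (3.00 and 3.33) lay between these. The shares of the kainate subunits depend on the length used: *Grik3* ranged from 27.3% with the longest transcript to 46.8% with the coding length, and *Grik1* fell to 10.6% with the latter.

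**Figure D2:**
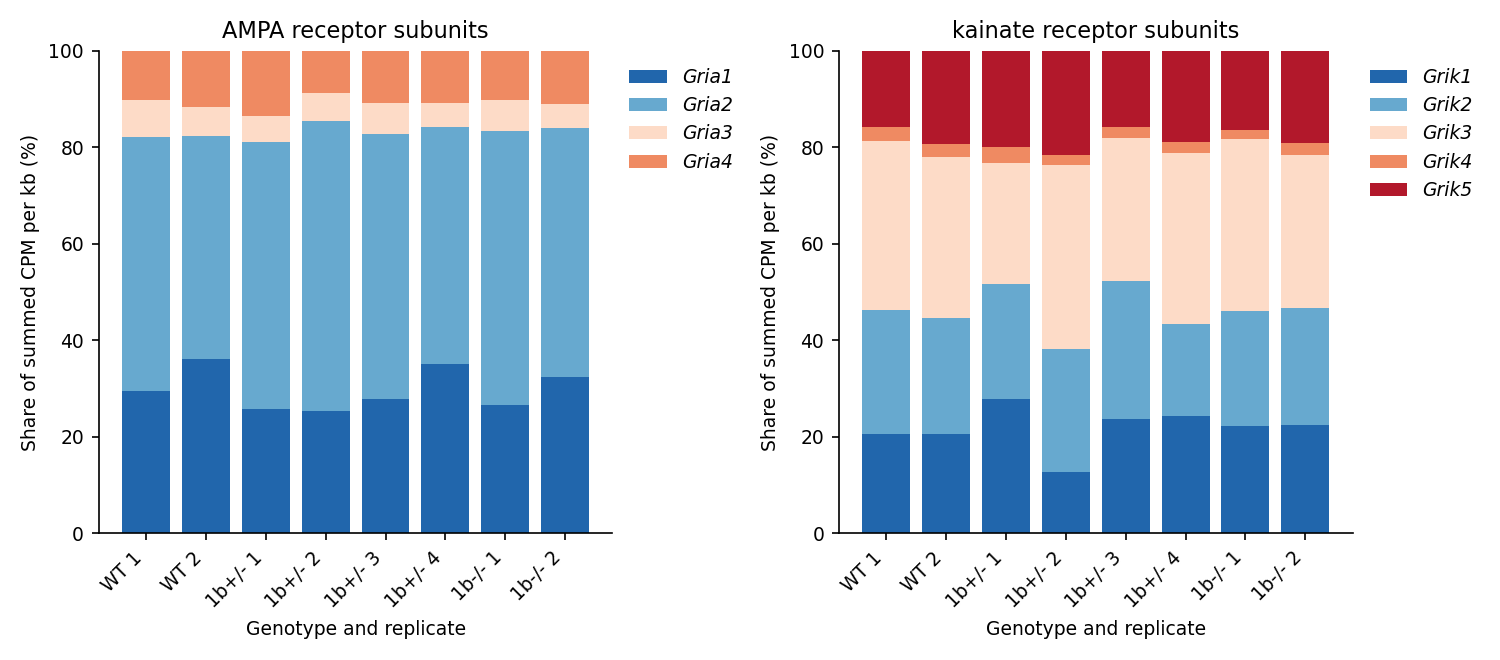
Share of each subunit in the summed CPM per kb of the AMPA (left) and kainate (right) receptor genes, a stacked bar for each library, labelled by genotype and replicate. *Gria2* takes 46.3% to 60.2% of every AMPA bar, and *Grik1* takes 12.7% of the kainate bar of 1b+/- replicate 2 and 27.8% of that of replicate 1.

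The comparisons of genotypes asked whether loss of the 1b interval was accompanied by a change in these receptor genes at P7. It was not detectable for any of them. In edgeR's quasi-likelihood test with Benjamini-Hochberg adjustment over 15588 genes, 0 of 9 members passed a threshold of 0.05 in 1b+/- against WT, where 0.0834% of all genes passed. When 1b-/- was set against WT, or against 1b+/-, the count was also 0 of 9, with 0.00642% of all genes in each case. At an unadjusted p under 0.05 the count of members was 0 in each comparison, beside 4.34%, 1.64% and 1.23% of all genes. The likelihood ratio test of edgeR and the Wald test of DESeq2 called 0 of 9 as well, adjusted or not.

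**Figure D3:**
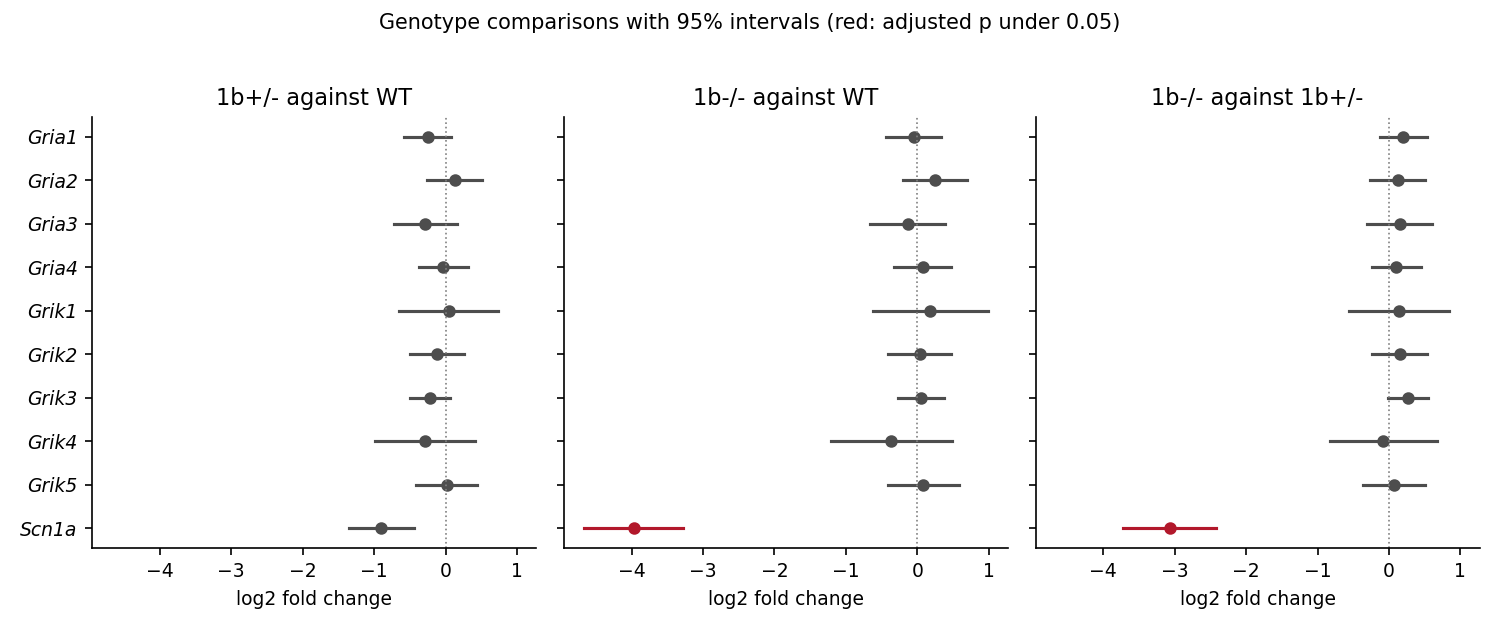
Log2 fold changes (points) with 95% intervals (lines) from edgeR for the 9 subunit genes and *Scn1a* in the 3 genotype comparisons, with adjusted p under 0.05 in red. Every subunit interval includes 0. *Scn1a* lies at -0.90 in 1b+/- against WT, where it was not called, and at -3.97 and -3.07 in the comparisons of 1b-/-.

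The intervals were taken gene by gene, without adjustment for the number of genes. They do not mark the change needed for a call. *Scn1a* in 1b+/- against WT had an interval of 0.391-fold to 0.734-fold, yet it was not called (edgeR adjusted p 0.381). Over the 4 AMPA subunits and 3 comparisons the 95% bounds ran from 0.604-fold (*Gria3*, 1b+/- against WT) to 1.61-fold (*Gria2*, 1b-/- against WT). For the kainate subunits they ran from 0.431-fold (*Grik4*) to 1.98-fold (*Grik1*), both in 1b-/- against WT. The median log2 fold change of the AMPA subunits was -0.14, 0.01 and 0.13 in the 3 comparisons and that of the kainate subunits -0.12, 0.05 and 0.14, beside 0.01, -0.0056 and -0.0043 over all genes. The 3 comparisons share libraries, so their values are not independent of each other.

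*Gria2*, whose subunit sets how much calcium the channel passes, had 632 and 559 CPM in WT, 608, 769, 722 and 499 CPM in 1b+/- and 763 and 651 CPM in 1b-/-. Both 1b-/- libraries were above both WT libraries, and the 1b+/- libraries spanned the range of the other genotypes. The log2 fold change was 0.13 (SE 0.18) in 1b+/- against WT, 0.25 (SE 0.20) in 1b-/- against WT and 0.12 (SE 0.17) in 1b-/- against 1b+/- (edgeR adjusted p 1.0 in each). Leaving out 1 library at a time moved these values to between 0.04 and 0.23, between 0.13 and 0.36 and between 0.0002 and 0.23, the lower end of the last 2 being reached without 1b-/- replicate 1. With sex as a covariate the value in 1b-/- against WT was 0.42, above that range.

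*Gria1*, whose subunit is central to activity-dependent insertion of receptors, had 309 and 379 CPM in WT, 245, 281, 320 and 309 CPM in 1b+/- and 309 and 354 CPM in 1b-/-. The genotypes overlapped in all 3 comparisons. In 1b+/- against WT the log2 fold change was -0.25 (SE 0.15, edgeR unadjusted p 0.118), and it was -0.05 (SE 0.17) in 1b-/- against WT. Without WT replicate 2, its highest library, the first of these was -0.10. With sex as a covariate it was -0.39 with an unadjusted p under 0.05 and an edgeR adjusted p of 0.886, which was the lowest adjusted p of any member in any fit of the 3 genotype comparisons. The *Gria1* value in 1b-/- against WT moved from -0.05 to -0.31 with that covariate.

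*Gria3*, an X-linked gene, had 130 and 101 CPM in WT, 83.9, 104, 119 and 72.1 CPM in 1b+/- and 120 and 90.4 CPM in 1b-/-, with overlap throughout. *Gria4*, prominent in interneurons and in the young brain, had 110 and 127 CPM in WT, 134, 101, 128 and 98.2 CPM in 1b+/- and 125 CPM in both 1b-/- libraries. The genotypes again overlapped for both genes. The log2 fold changes against WT were -0.29 (SE 0.20) and -0.14 (SE 0.24) for *Gria3*, and -0.03 (SE 0.16) and 0.07 (SE 0.18) for *Gria4*, in 1b+/- and 1b-/- respectively. The first value of *Gria3* was -0.09 without WT replicate 1 and -0.45 without WT replicate 2.

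Of the kainate subunits, *Grik3* came nearest to a separation of the genotypes. It had 166 and 179 CPM in WT, 137, 151, 143 and 163 CPM in 1b+/- and 185 and 172 CPM in 1b-/-. All 4 1b+/- libraries were below all 4 libraries of the other genotypes, while WT and 1b-/- overlapped. The log2 fold change was -0.22 (SE 0.13, edgeR unadjusted p 0.106) in 1b+/- against WT and 0.27 (SE 0.13, edgeR unadjusted p 0.0567) in 1b-/- against 1b+/-, with adjusted p 1.0 in both. Against WT, 1b-/- differed by 0.05 (SE 0.15). Exact two-sided permutation tests of log2 CPM gave p = 0.133 for the first and 0.0667 for the second, of 15 arrangements each, and the latter is the smallest p they can give.

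Groups without overlap were common among all genes. In 1b+/- against WT, 1 of 9 members (*Grik3*) lay below without overlap, beside 5.93% of all genes, and 0 of 9 lay above, beside 6.4%. Setting 1b-/- against 1b+/- left 1 of 9 members (again *Grik3*) above, beside 3.41% of all genes, and 0 of 9 below, beside 3.98%. For 1b-/- against WT, 2 of 9 members (*Gria2* and *Grik1*) lay above, beside 11.6% of all genes, and 1 of 9 (*Grik4*) lay below, beside 12%. In either direction the groups of 12.3%, 7.39% and 23.6% of all genes did not overlap in these comparisons. The smallest p that the 6 arrangements of that comparison allow is 0.333. After a correction for base composition described below, *Grik3* was 170 and 178 CPM in WT, 131 to 167 CPM in 1b+/- and 159 and 202 CPM in 1b-/-, so that 1b+/- and 1b-/- then overlapped.

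*Grik2* had 112 and 118 CPM in WT, 120, 93.2, 127 and 81.1 CPM in 1b+/- and 115 and 121 CPM in 1b-/-. *Grik5* had 31.9 and 44.1 CPM in WT, 46.5, 36.6, 32.7 and 37.4 CPM in 1b+/- and 36.6 and 44.1 CPM in 1b-/-. Both genes overlapped between all genotypes. Their log2 fold changes against WT were -0.12 (SE 0.18) and 0.03 (SE 0.20) for *Grik2*, and 0.02 (SE 0.20) and 0.09 (SE 0.23) for *Grik5*, in 1b+/- and 1b-/- respectively. With sex as a covariate the values in 1b-/- against WT were 0.05 for *Grik2* and 0.34 for *Grik5*.

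*Grik1* and *Grik4* varied most among the libraries, and they did so within 1b+/-. *Grik1* had 36.2 and 41.2 CPM in WT, 56.2, 18.7, 42.4 and 41.7 CPM in 1b+/- and 42.8 and 45.1 CPM in 1b-/-. *Grik4* had 9.18 and 9.96 CPM in WT, 11.9, 5.05, 6.79 and 7.01 CPM in 1b+/- and 6.12 and 9.01 CPM in 1b-/-. For both genes the highest library was 1b+/- replicate 1 and the lowest was 1b+/- replicate 2, both male, with a ratio of 3.01 for *Grik1* and 2.37 for *Grik4*.

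These spreads exceeded counting error. The exact 95% Poisson intervals of *Grik1* were 52.5 to 60.1 CPM in replicate 1 and 16.1 to 21.6 CPM in replicate 2, and those of *Grik4* were 10.3 to 13.8 and 3.75 to 6.66 CPM. These intervals cover counting error only. The SD of log2 CPM over the 8 libraries was 0.46 for *Grik1*, larger than for 97.0% of 9609 genes of at least 10 CPM on average. The largest SD of any other member apart from *Grik4* was that of *Gria3*, 0.29, larger than for 80.2%.

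The log2 fold changes of *Grik1* were 0.04 (SE 0.32) in 1b+/- against WT and 0.18 (SE 0.37) in 1b-/- against WT, and those of *Grik4* were -0.29 (SE 0.32) and -0.37 (SE 0.39). Leaving out 1b+/- replicate 1 gave -0.19 for *Grik1* in 1b+/- against WT and leaving out replicate 2 gave 0.28. For *Grik4* in the same comparison, leaving out replicate 1 gave -0.62, with an unadjusted p under 0.05 but no call after adjustment, and leaving out replicate 2 gave -0.12. In 1b-/- against WT, *Grik4* was -0.08 without 1b-/- replicate 1, -0.64 without 1b-/- replicate 2 and -0.04 with sex as a covariate. The direction of the *Grik1* difference thus turned with a single library.

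**Figure D4:**
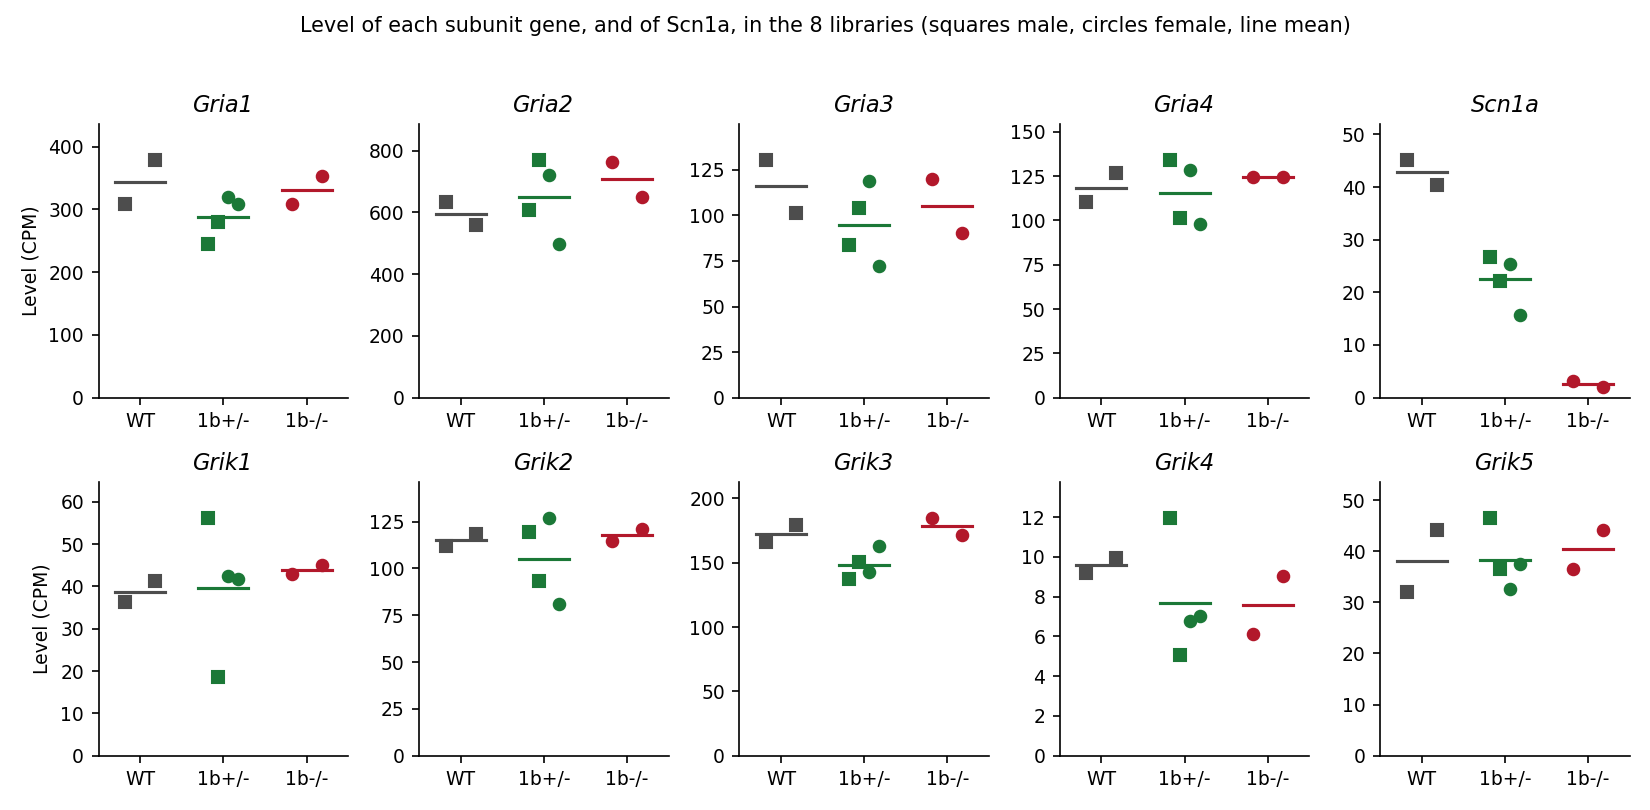
CPM of each subunit gene and of *Scn1a* in every library by genotype (squares male, circles female, horizontal line the group mean, vertical axes from 0). *Scn1a* falls from WT to 1b-/- without overlap, *Grik3* is lowest in the 4 1b+/- libraries, and *Grik1* and *Grik4* have both their highest and their lowest library within 1b+/-.

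A trend over the number of deleted alleles gave the same count. In that edgeR fit 0 of 9 members passed (0.0385% of all genes), and 0 passed at an unadjusted p under 0.05 (1.73% of all genes). *Scn1a*, at a log2 change of -1.72 (SE 0.27) per allele, did not pass either (edgeR adjusted p 0.0672). The log2 change per allele of the members ran from -0.19 (SE 0.18, *Grik4*) to 0.12 (SE 0.10, *Gria2*). Between females and males of 1b+/-, the only genotype with both sexes, 0 of 9 members passed (0.0321% of all genes, 0.00642% higher and 0.0257% lower in females), and 0 passed unadjusted (2.66%). The X-linked *Gria3* differed by 0.05 (SE 0.25) on the log2 scale, female minus male.

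Some properties of the libraries were set beside the levels of the subunits as a description. The share of *Gria1* in the AMPA sum was 29.6% and 36.1% in WT, 25.7%, 25.3%, 27.9% and 35.1% in 1b+/- and 26.5% and 32.3% in 1b-/-. The 4 libraries with the highest *Gria1* share (WT replicates 1 and 2, 1b+/- replicate 4 and 1b-/- replicate 2) were the 4 with the lowest *Gria2* share. They were also the 4 with the highest sum of choroid plexus markers, 810 to 988 CPM against 15.5 to 404 CPM in the others. All 5 markers of that list were detected in every library, and they encode secreted or epithelial proteins such as transthyretin (*Ttr*), not glutamate receptors. *Ttr* made up most of the sum in those 4 libraries (766 to 938 CPM). *Folr1* and *Clic6* were also highest in the same 4, whereas *Kl* (2.38 to 3.72 CPM over all libraries) and *Kcnj13* were not. Both WT libraries (929 and 988 CPM) exceeded both 1b-/- libraries (404 and 810 CPM) in this sum. In that comparison 12% of all genes lay lower in 1b-/- without overlap. Of the 4 1b+/- libraries, 3 lay at 15.5 to 189 CPM, while replicate 4 was at 939 CPM, within the range of WT. All 5 markers had a log2 fold change below 0 against WT in 1b+/- (median -1.26) and in 1b-/- (median -0.45), and 0 of 5 passed the edgeR threshold. Their part in the *Gria1* share was not tested.

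The libraries also differed in base composition. The 1796 genes of highest GC content (55.3% or more) and the 1796 of lowest (43.9% or less) were compared by their median deviation from the mean log2 level. The difference, GC-rich minus GC-poor, was -0.31 and 0.15 in WT, 0.29, -0.33, -0.14 and 0.37 in 1b+/- and -0.33 and 0.31 in 1b-/-. The members span this range, from 38.1% GC in *Gria2* and 48.5% in *Gria1* to 62.3% in *Grik5*. Of the 4 libraries with the highest *Gria1* share, 3 were among the 4 with the highest difference and 3 were among the 4 smallest libraries.

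When the median deviation in 10 bins of GC content was removed from each library, the *Gria1* share ran from 24.5% to 35.0% and its 4 highest libraries were the same 4. The SD of log2 CPM became smaller for 5 of 9 members, among them *Gria2* (0.22 to 0.15), *Gria3* (0.29 to 0.19) and *Grik5* (0.20 to 0.16), and not for *Grik1* (0.46 to 0.49). *Gria2* was then 565 and 579 CPM in WT, 567 to 693 CPM in 1b+/- and 684 and 725 CPM in 1b-/-. In the edgeR fit with this correction the log2 fold change of *Gria2* in 1b-/- against WT was 0.30, past an unadjusted p of 0.05 but with an adjusted p of 1.0, and 0 of 9 members passed after adjustment in any comparison.

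The extreme libraries of *Grik1* and *Grik4* were also at the extremes of most marker sums, of brain regions and of cell types alike. 1b+/- replicate 1, the highest library of both genes, had the lowest neocortex sum (668 CPM), the lowest hippocampus sum (79.0 CPM) and the highest midbrain and hindbrain sum (28.5 CPM). 1b+/- replicate 2, the lowest of both, had the highest neocortex sum (1245 CPM) and the lowest striatum sum (117 CPM). The midbrain and hindbrain sum of replicate 2 (7.27 CPM) was the second highest. The cerebellum sum was highest in replicate 1 (52.2 CPM), though its main gene *Calb1* (36.8 CPM) was not, and lowest in replicate 2 (18.5 CPM). Replicate 1 had the lowest interneuron sum (655 CPM) and the highest oligodendrocyte precursor (212 CPM) and microglia (59.9 CPM) sums. Replicate 2 had the lowest neuron sum (2666 CPM) and the highest oligodendrocyte (96.2 CPM) and astrocyte (819 CPM) sums. The thalamus sum was extreme in neither. In the other libraries *Grik4* had no steady order with the neocortex sum. In 1b-/- it was 9.01 CPM at a sum of 770 CPM and 6.12 CPM at 1099 CPM. By contrast, it was 7.01 CPM at 862 CPM in 1b+/- replicate 4 and 9.96 CPM at 1003 CPM in WT replicate 2. Not every gene followed its sum: in replicate 1 the low-level hippocampus genes *Fibcd1* (6.8 CPM) and *Iyd* (1.06 CPM) were at their highest, and in replicate 2 *Cux2* of the neocortex list was at its lowest (43.9 CPM) and *Rgs9* of the striatum list was at its second highest (51.1 CPM). Replicate 1 also had the second highest *Cux2* (54.4 CPM) and the lowest *Tph2* of the midbrain and hindbrain list (0.33 CPM). With these replicates both left out, the log2 fold change in 1b+/- against WT was 0.12 for *Grik1* and -0.48 for *Grik4*, and 0 of 9 members passed. Of the midbrain and hindbrain list 5 genes passed the filter, and *En2* was 15.6 CPM in replicate 1 and 0 to 2.53 CPM in the others. The part of brain region or of cell type in these levels was not tested.

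**Figure D5:**
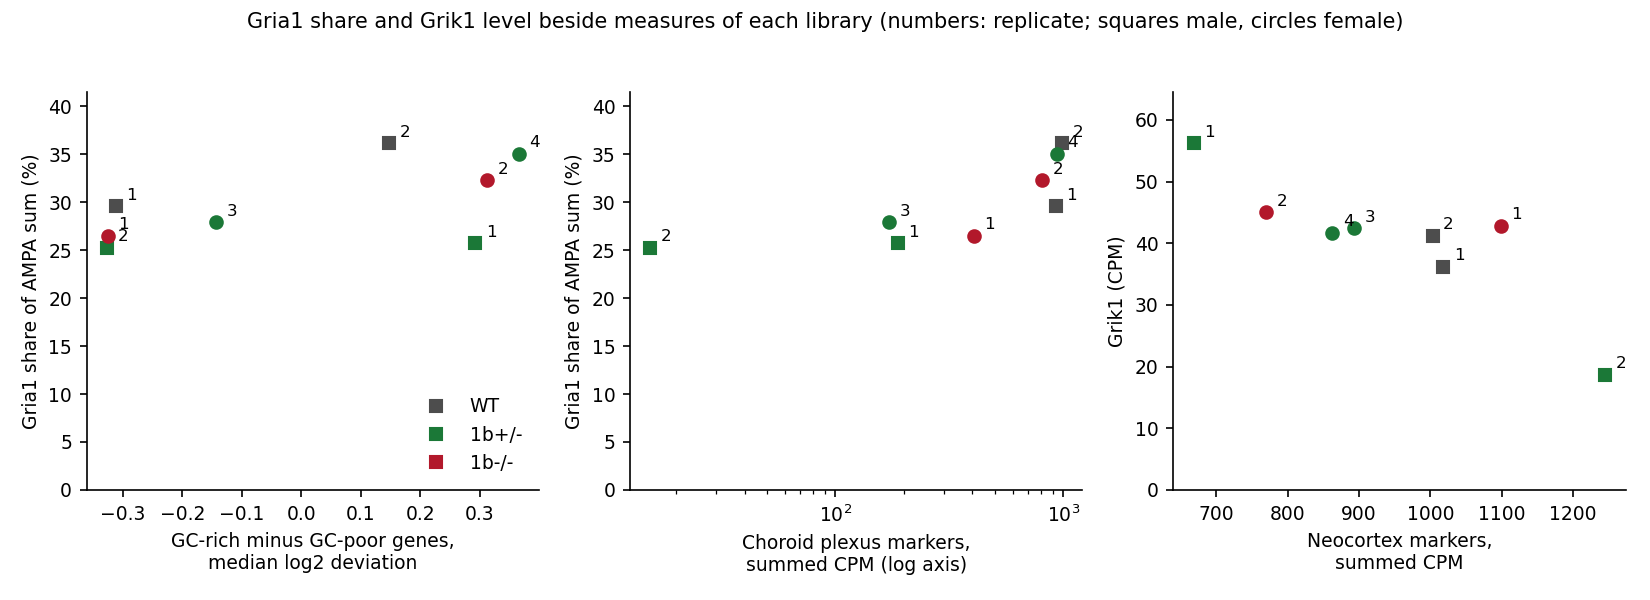
Share of *Gria1* in the AMPA sum against the GC difference of each library (left) and against the summed choroid plexus markers on a log axis (middle), and CPM of *Grik1* against the summed neocortex markers (right), a point for each library with its replicate number and genotype colour. The 4 highest *Gria1* shares lie at 810 to 988 CPM of choroid plexus markers, and *Grik1* is highest at the lowest neocortex sum and lowest at the highest. The libraries at these neocortex extremes were also at the extremes of most other marker sums.

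The likeness of the members' patterns over the 8 libraries was measured by Pearson's r of log2 CPM, which is a description because all genes share the depth, the base composition and the tissue of a library. The most alike pair was *Gria4* and *Grik2* (r = 0.92), followed by *Grik1* and *Grik4* (0.71), *Gria1* and *Grik3* (0.70) and *Gria2* and *Gria3* (0.67). The least alike pair was *Gria3* and *Grik5* (-0.62). *Gria1* and *Gria2*, the leading AMPA subunits, did not move together (-0.19).

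Of 9601 genes of at least 10 CPM outside the family, the most alike were *Tsr1* and *Chst11* for *Gria1* (0.97 and 0.96), *Rufy2* and *Tmem67* for *Gria2* (0.98 and 0.97), *2610044O15Rik8* and *Cops2* for *Gria3* (0.99 and 0.98) and *Rimbp2* and *Trib2* for *Gria4* (both 0.96). For the kainate subunits they were *Myrip* and *Rxrg* for *Grik1* (0.98 and 0.97), *Tmem69* and *Gpatch4* for *Grik3* (0.92 and 0.90), *Klhl1* and *Rnf10* for *Grik4* (both 0.95) and *Rxra* and *Acox3* for *Grik5* (0.97 in each case). For *Grik2* it was *Galntl6* (0.97), the next being an entry whose symbol had turned into a date. These are the highest of 9601 values, each over only 8 libraries. How high such values run by selection alone was not tested.

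The genes that accompany these receptors were followed in 5 lists, and 0 genes of any list passed the edgeR threshold in any comparison. In 1b+/- against WT, 12 of 18 AMPA auxiliary subunits, 2 of 2 kainate auxiliary subunits, 10 of 12 scaffold and trafficking genes, 4 of 5 extracellular organizers and 2 of 3 RNA editing enzymes had a log2 fold change below 0. The list medians were -0.14, -0.31, -0.09, -0.11 and -0.05 in that order, beside 0.01 over all genes. General neuron markers lay below 0 as well in that comparison (5 of 6, median -0.17), as did interneuron markers (7 of 8, median -0.09), with 0 called in either list, and their part in the values of the receptor partners was not tested. The medians of the 5 lists for 1b-/- against WT were -0.10, -0.06, 0.04, -0.01 and -0.07.

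Of the AMPA auxiliary subunits, *Cacng2*, which encodes stargazin and brings the receptor to the synapse, had the lowest p. It was 75.5 and 79.2 CPM in WT, 60.2, 52.6, 68.7 and 47.4 CPM in 1b+/- and 74.7 and 57.1 CPM in 1b-/-. Its 1b-/- libraries lay below both WT libraries (log2 fold change -0.22, SE 0.20), as did those of *Cnih3*, *Frrs1l* and the scaffold gene *Grip1*, beside 12% of all genes. Its 1b+/- libraries also lay below both WT libraries, with a log2 fold change of -0.42 (SE 0.17, edgeR unadjusted p 0.0306, adjusted p 1.0). In 1b+/- against WT, *Gsg1l*, *Olfm1* and the scaffold gene *Dlg2* lay lower without overlap as well, beside 5.93% of all genes. *Cacng2* was the only 1 of 18 AMPA auxiliary subunits with an unadjusted p under 0.05, beside 4.34% of all genes. The most abundant genes of that list were *Olfm1*, a secreted receptor partner, with 287 CPM on average (log2 fold change -0.29, SE 0.17, in 1b+/- against WT), and *Frrs1l*, which acts in receptor assembly, with 102 CPM (-0.22, SE 0.15).

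*Neto2* and *Neto1*, the auxiliary subunits of kainate receptors, had 486 and 58.9 CPM on average. Their log2 fold changes in 1b+/- against WT were -0.25 (SE 0.20) and -0.37 (SE 0.19, edgeR unadjusted p 0.0722), and -0.09 (SE 0.23) and -0.04 (SE 0.22) in 1b-/- against WT. None passed the threshold. *Dlg2*, a scaffold of the postsynaptic density, had 332 CPM and -0.29 (SE 0.14) in 1b+/- against WT, and *Epb4.1l1*, which links *Gria1* protein to actin, had 237 CPM and -0.09 (SE 0.17).

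The neuronal pentraxins *Nptx1* and *Nptx2*, which cluster AMPA receptors from outside the cell, were low, with 20.4 and 7.09 CPM and log2 fold changes of -0.02 (SE 0.17) and -0.42 (SE 0.31) in 1b+/- against WT. The editing enzymes *Adar* and *Adarb1* had 64.7 and 44.8 CPM, with 0.04 (SE 0.20) and -0.10 (SE 0.17). *Adarb1*, the enzyme of the *Gria2* site shown above, was measured in every library at 35.7 to 51.2 CPM, with overlap between the genotypes.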

How the data were processed

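The table held the deposited counts, whole numbers of reads per gene symbol that were not normalized, 1 column for each of 8 mice. Per the labels and the study's methods, the authors prepared stranded poly(A) libraries, sequenced 50 bases from a single end, aligned reads to mm9 with STAR 2.7.2 and counted them with featureCounts. The use of strand, how reads matching several genes were treated, and the gene annotation used for counting were not given in the sources used here; a knownGene track of mm9 is named for quality control. Totals of 2947770 to 20878772 counts set the precision, and with 3 counts as the limit for a count of 0 the shallowest library allowed up to 1.02 CPM.

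Genotype, sex and age came from the labels. Replicates were numbered in deposition order and pair no animals. That libraries came from separate animals rests on the labels. A gene was tested if it reached 1 CPM in 1 or more libraries (15588 genes). All libraries entered a single fit of edgeR 4.0.16 in R 4.3.3 (TMM scaling, quasi-likelihood test, genotype as the factor), with Benjamini-Hochberg adjustment over all tested genes at 0.05. Further fits used the number of deleted alleles, or 1b+/- divided by sex. Standard errors and 95% intervals are on the log2 scale. The fits were tested on simulated data. Lengths, exons and sequences came from GENCODE vM1 on NCBIM37 (mm9). Tables were handled in Python 3.11.15 with pandas 2.3.3.

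The members and lists were chosen with earlier results of these data known. The rule named *Scn1a*, the 9 members, the 2 most abundant genes of each further list and any of its genes with an unadjusted p under 0.05, and for each member the most alike member and 2 other genes. The lists were AMPA and kainate auxiliary subunits, scaffold and trafficking genes, extracellular organizers and RNA editing enzymes, with marker lists of 13 cell types and brain regions summed by library. A further list is not reported here. Alternatives were other filters and scalings, the edgeR likelihood ratio test, DESeq2 1.42.0, sex as a covariate, subsets of animals and omission of each library. The GC correction, and the omission of 1b+/- replicates 1 and 2 together, were added after seeing the data.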

Additional observations from a re-analysis of the deposited data

How the results depend on the processing

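In 91 fits over all settings, 0 of 9 members passed the adjusted threshold. Of 495 alternative log2 fold changes of the members, 461 kept the direction of the reported value and 34 turned it, in 13 of 27 results, with no turned value larger than 0.25 in size and adjusted p-values of 0.886 to 1.0 throughout. In 1b+/- against WT the turned values were 0.0016 (upper quartile scaling) and 0.023 (GC correction) for *Gria4*, -0.036 (sex as a covariate) and -0.032 (males alone) for *Grik1*, and -0.034 (GC correction) and -0.13 (without 1b+/- replicates 1 and 2 together) for *Grik5*. *Grik3* in 1b-/- against WT was -0.036 with sex as a covariate. *Grik4* in 1b-/- against 1b+/- was 0.11 with sex as a covariate, with females alone, and without 1b+/- replicates 1 and 2 together. The cause was not tested.

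Leaving out each library in turn changed the direction of further differences. The log2 fold changes then ran from -0.13 to 0.074 for *Gria4*, -0.19 to 0.28 for *Grik1* and -0.20 to 0.26 for *Grik5* in 1b+/- against WT. Against WT, those of 1b-/- ran from -0.19 to 0.10 for *Gria1*, -0.36 to 0.058 for *Gria3*, -0.025 to 0.18 for *Gria4*, -0.0062 to 0.071 for *Grik2*, -0.0081 to 0.10 for *Grik3* and -0.14 to 0.33 for *Grik5*. Against 1b+/-, those of 1b-/- ran from -0.077 to 0.33 for *Gria3*, -0.099 to 0.37 for *Grik1*, -0.35 to 0.25 for *Grik4* and -0.066 to 0.20 for *Grik5*. Where 1 animal of a group was left, that animal was taken to vary like the others. Without 1b+/- replicate 4, and with the GC correction, *Grik3* passed an unadjusted p of 0.05 in 1b-/- against 1b+/-, as did *Grik1* and *Grik4* between the sexes without 1b+/- replicate 1 or 2, and *Gria2* per allele and *Grik5* between the sexes with the GC correction. None passed after adjustment.

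Counts over all genes depended more on the setting. In 1b+/- against WT 13 genes passed, against 57 with no filter, 64 by the likelihood ratio test, 24 by DESeq2, 3 with the GC correction, 0 with sex as a covariate or in males alone, and 0 to 30 without a library. For 1b-/- against WT 1 passed, against 33, 23 and 13 by the first 3 of these, 15 with only the compared groups and up to 16 without a library. Per allele 6 passed, against 24, 31 and 3, with 3 by upper quartile scaling, 2 with the GC correction, 0 with sex as a covariate and 0 to 13 without a library. Between the sexes 5 passed, against 85, 20 and 14, and up to 46 without a library. For 1b-/- against 1b+/- 1 passed, and 0 without either 1b-/- replicate.

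The shares of the subunits moved with the length used by more than the spread between libraries for *Gria2* (48.7% with the longest transcript), for *Gria3* (8.62% to 10.2%), and for *Grik1*, *Grik2*, *Grik3* and *Grik5*. No paired analysis was possible because the labels give no replicate number that the genotypes share. With 2 animals in WT and in 1b-/-, and as few as 21 counts of *Grik4* in a library, changes within the intervals given could have gone uncalled. The intervals do not mark the limit of detection, because a call needed adjustment over 15588 genes. Among 18 measures of the 1b+/- group, no library stood apart by Dixon's test, where chance would give 0.9.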
